A study of Homo sapiens with 9 samples.

Results

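CYP26A1-high epiblast-like cells are cells of human extra-embryoids (hEEs) that carry the transcripts of an epiblast and, in addition, several transcripts of *CYP26A1*. hEEs are three-dimensional aggregates grown from human pluripotent stem cells, with an inner epiblast-like and an outer hypoblast-like compartment. Those profiled here came from ESI017, an established human embryonic stem cell line, wild type in genotype and with no treatment, and were collected on day 4 (D4) or day 6 (D6) of culture. Aggregates with visible inner and outer compartments were pooled for each day, dissociated, and made into 1 library of transcript 3′ ends per day on a droplet platform, so there is no replicate. No test between groups could be run for this reason, and every interval below is a 95% interval for counting error only.

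The cells were selected on raw counts of unique molecular identifiers (UMIs), each of which marks 1 captured transcript. Cells with 3430 to 27500 UMIs and at most 10% mitochondrial UMIs were kept. A kept cell entered the epiblast-like gate with at least 5 UMIs of *POU5F1*, at least 1 of *SOX2* and at most 2 of *FN1*, and it counted as CYP26A1-high with at least 3 UMIs of *CYP26A1*, at most 7 of *TAGLN* and none of *TFAP2A*. This gave 326 cells at D4 and 489 at D6, 815 of the 19248 kept cells and of the 22426 cells called in libraries of 151712246 UMIs (D4) and 150320228 UMIs (D6). They made up 3.56% [3.19, 3.96] of the kept cells of D4 and 8.77% [7.88, 9.73] of the 3716 cells of the gate (exact binomial intervals). For D6 the shares were 4.84% [4.43, 5.28] and 9.68% [8.87, 10.5] of the 5054 cells in the gate. Each day's cells were set beside comparison cells of the same gate and library, with no UMI of *CYP26A1* or *TFAP2A* and at most 4 of *TAGLN*, of which there were 1334 at D4 and 2491 at D6. Levels are given as CPM, the UMIs of a gene summed over the cells of a group per 1000000 UMIs of that group, with exact Poisson intervals in brackets. Ratios are log2 ratios of CPM, CYP26A1-high over comparison cells, with exact conditional binomial intervals. The levels of the 6 genes used for selection are given as a description only.

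The epiblast is the pluripotent tissue of the embryo that gives rise to the body, and the hypoblast is the extraembryonic endoderm that lies beside it. Retinoic acid is made from vitamin A by retinol and retinaldehyde dehydrogenases, enters the nucleus with carrier proteins and acts through receptors of the RAR and RXR families, which bind paired copies of a short hexamer in DNA. *CYP26A1* encodes a cytochrome P450 enzyme that breaks retinoic acid down, and it is itself a direct target of the receptors. In mouse embryos its product is known for keeping retinoic acid away from the tissue around the primitive streak and from the anterior neural plate, and it is also transcribed in anterior endoderm.

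*CYP26A1* (ENSG00000095596) lies on chromosome 10, at chr10:93073475-93077885 on the plus strand of GRCh38.p14 (RefSeq), the build family of the deposited counts. RefSeq gives 2 starts for it. The 250 bases before the second start, chr10:93073643-93073892, are printed because they hold a direct repeat of the hexamer that the receptors bind. The capitals mark both hexamers, which read AGTTCA on the minus strand and have 5 bases between them.
CYP26A1, 250 bases before the second start: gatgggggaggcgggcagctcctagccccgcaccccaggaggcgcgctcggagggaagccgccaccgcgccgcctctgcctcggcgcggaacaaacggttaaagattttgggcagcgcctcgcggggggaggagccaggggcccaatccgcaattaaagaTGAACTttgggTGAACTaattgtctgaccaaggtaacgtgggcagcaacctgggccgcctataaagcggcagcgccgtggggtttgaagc
The repeat lies 73 bases before that start, at chr10:93073803-93073819. The search used the hexamer AGGTCA and its forms AGTTCA, also GGTTCA, as well as GGGTCA, in any pair, 5 bases apart, on both strands of the 250 bases before each start. It found such a repeat before 26 of 35116 starts (0.0740%). The region before the first start of *CYP26A1* held none. Of the 39 genes of the retinoic acid list below with an entry, 2 had the repeat, *CYP26A1* and *RARB*, a retinoic acid receptor. None of the genes called higher or lower below had it, among 96 and 33 with an entry at D4 and 289 and 89 at D6. Over all 8588 compared genes with an entry, 3 had it (0.0349%), so sets of this size would hold few or none. Libraries of 3′ ends do not tell which start was used.

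UMIs of *CYP26A1* were found in other cells too. At D4 a UMI of it was present in 53.4% [51.8, 55.0] of the cells of the epiblast-like gate, and at D6 in 40.6% [39.3, 42.0]. A single UMI was all that 28.0% of the gate's cells had at D4 and 21.6% at D6, and what part of these came from free RNA in the suspension was not tested. UMIs were more frequent in hypoblast-like cells, here the kept cells with no *SOX2*, at most 4 UMIs of *POU5F1* and at least 10 of *FN1*, the gene for fibronectin. In this hypoblast gate, 69.9% [67.7, 72.1] of 1760 cells had a UMI at D4 and 75.1% [72.9, 77.1] of 1728 cells at D6, and 3 or more UMIs were found in 47.6% and 59.6%. Median depths were 15158 UMIs in the epiblast-like and 12634 in the hypoblast gate at D4, and 14226 and 12040 at D6. The CYP26A1-high epiblast-like cells held 3.72% of all *CYP26A1* UMIs found in D4 kept cells and 5.67% in D6 kept cells, compared with 25.4% and 32.2% in the hypoblast gate. A further 63.8% and 57.1% of these UMIs lay in the 3675 and 3315 kept cells of neither gate, at 569 and 753 CPM. The level was 262 CPM [249, 276] in the CYP26A1-high cells and 409.9 CPM in the hypoblast gate at D4, and 412 CPM [397, 427] and 768 CPM at D6.

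**Figure D1:**
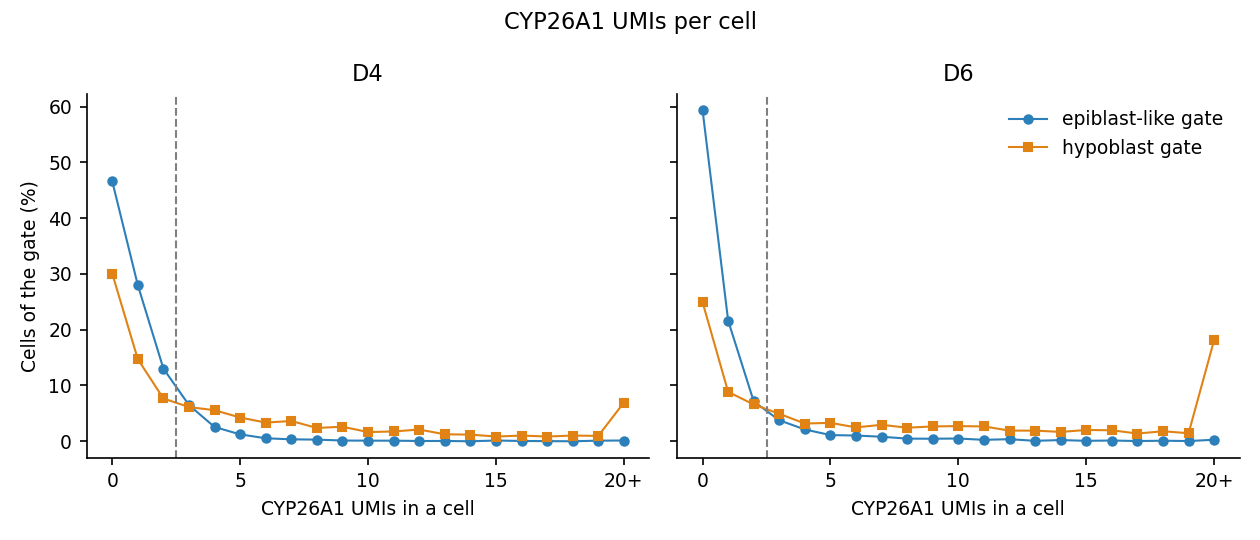
Share of cells (y axis, percent) by the number of *CYP26A1* UMIs in a cell (x axis, with 20 or more in the last point) at D4 and D6, in the epiblast-like gate (circles) and the hypoblast gate (squares), with the threshold of 3 UMIs as a dashed line. The epiblast-like cells fall off without a second peak, while 3 or more UMIs are found in 47.6% and 59.6% of the hypoblast gate.

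Among the CYP26A1-high cells the median was 3 UMIs of *CYP26A1* at D4, with a highest value of 33, and 4 UMIs at D6, with a highest value of 37. At D4, 182 cells stood just inside the threshold with 3 UMIs, 251 had 3 or 4, 61 had 5 to 9 and 14 had 10 or more, and 368 cells with 2 UMIs stood just outside it. At D6, 162 cells had 3 UMIs, 253 had 3 or 4, 160 had 5 to 9 and 76 had 10 or more, with 321 cells of 2 UMIs outside. The D4 cells thus lay nearer to the threshold than the D6 cells. When every cell was thinned to 3430 UMIs, a UMI of *CYP26A1* remained in 62.6% of the CYP26A1-high cells of D4 and 73.2% of those of D6. Depth differed from the comparison cells at D4, with medians of 16449.5 and 13702 UMIs, and hardly at D6, with 14154 and 14013. Mitochondrial transcripts took 3.53% of UMIs in CYP26A1-high and 3.97% in comparison cells at D4, and 1.91% and 2.87% at D6. The libraries shared 27 barcodes among kept cells and none among CYP26A1-high cells.

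Pluripotency genes outside the rule stood at levels near those of the comparison cells. Of 19 further genes shared by pluripotent states, none differed by 1.5-fold at D4, and at D6 *PRDM14* was higher and *FOXD3-AS1*, a noncoding RNA, was lower. *L1TD1*, an RNA-binding protein of pluripotent cells, was at 1149 CPM in CYP26A1-high and 1197 in comparison cells at D4, and at 853 and 1156 CPM at D6. *NANOG*, a core factor of the pluripotent state, was at 63.4 and 50.0 CPM at D4 and at 53.4 and 66.7 CPM at D6. *PRDM14*, a repressor active in pluripotent and germ cells, was at 37.8 against 15.6 CPM at D6. The hypoblast factors *GATA6* and *FOXA2* were at 5.71 and 11.1 CPM in CYP26A1-high cells of D4, above the 0.897 and 1.79 CPM of comparison cells and below the 128 and 134 CPM of the hypoblast gate. At D6 they were at 5.80 and 3.59 CPM, against 2.02 and 0.830 in comparison cells and 307 and 149 in the hypoblast gate. These UMIs came from few cells, 20 of 489 for *GATA6* and 15 of 489 for *FOXA2* at D6, where 5 cells held 50% and 53.8% of them. Of naive pluripotency genes, 1 of 15 was high enough to compare at D4 and was not past 1.5-fold, and 2 could be compared at D6, *DPPA3* and *TFAP2C*, both higher. Genes were compared at a mean of at least 5 CPM over both groups. *DPPA3* was under 5 CPM in comparison cells, so this filter fixed its direction.

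The other markers by which these cells are known, *MIAT*, *DPYSL3*, *FRAT2* and *CLU*, set the days apart. They were proposed from earlier results of these same libraries, so their levels are a description. All 4 were higher in CYP26A1-high cells of D6 and none passed 1.5-fold at D4. *DPYSL3*, of a family of proteins that bind the cytoskeleton of growing neurites, was at 61.2 CPM [54.8, 68.1] in CYP26A1-high and 59.6 CPM [56.2, 63.2] in comparison cells of D4. At D6 it was at 162 CPM [153, 171] and 47.6 CPM [45.4, 49.9], a log2 ratio of 1.76 [1.66, 1.87]. *MIAT*, a long noncoding RNA transcribed in neural and pluripotent cells, was at 33.2 and 24.4 CPM at D4 and at 86.4 and 28.7 CPM at D6, log2 ratios of 0.44 [0.19, 0.70] and 1.59 [1.45, 1.74]. *FRAT2*, which binds the kinase GSK3 and favours WNT signalling, was at 41.6 and 41.7 CPM at D4 and at 131 and 48.2 at D6, where its log2 ratio was 1.44 [1.32, 1.56]. *CLU*, which encodes the secreted chaperone clusterin, had log2 ratios of −0.04 [−0.22, 0.14] and 1.39 [1.28, 1.501]. At D4, then, the data go against the label beyond *CYP26A1* itself, and the D4 cells are described by their rule alone. Of the 5 genes of the DPYSL family that could be compared, *DPYSL3* was the 1 gene past 1.5-fold at D6.

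At D6 the CYP26A1-high cells had higher levels than the comparison cells of the transcription factor genes *FEZF1*, *OTX2*, *HESX1* and *ZIC2*, of the WNT antagonist gene *SFRP1* and of 3 frizzled receptor genes, and lower levels of *PCAT14*, *DUSP6*, *ETV4* and *ID3*. Of 10685 genes with a mean of at least 5 CPM over both groups, 394 (3.69%) were at least 1.5-fold higher in CYP26A1-high cells and 146 (1.37%) at least 1.5-fold lower. The median log2 ratio of all of them was 0.01. A gene under 5 CPM in comparison cells entered only where it was higher in CYP26A1-high cells. One under 5 CPM in CYP26A1-high cells entered only where it was lower. For sparse genes the filter thus fixes the direction, and counts over lists of such genes are a description only.

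*FEZF1* (ENSG00000128610; chr7:122301303-122310723, GRCh38.p14), a zinc finger repressor of the developing forebrain, had the highest ratio of the genes at 20 CPM or more. It had 436 UMIs in 219 of 489 CYP26A1-high cells (44.8%), a level of 60.2 CPM [54.7, 66.1]. In the comparison cells 90 UMIs were spread over 70 of 2491 cells (2.81%), a level of 2.49 CPM [2.00, 3.06], so the log2 ratio was 4.60 [4.27, 4.94]. CYP26A1-high cells held 55.0% of the *FEZF1* UMIs of the whole epiblast-like gate. In the hypoblast gate *FEZF1* was found in 1 of 1728 cells (0.0579%). After thinning to 3430 UMIs it was still found in 18.8% of CYP26A1-high and 0.723% of comparison cells. At D4 it was low in both groups, at 4.24 and 3.06 CPM.

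*OTX2*, a homeodomain factor of the epiblast, the anterior endoderm and the forebrain, was at 101 CPM [93.5, 108] in CYP26A1-high and 34.9 CPM [33.0, 36.9] in comparison cells of D6, a log2 ratio of 1.53 [1.39, 1.66]. *HESX1*, a repressor known from the anterior neural plate and pituitary, was at 51.6 and 19.98 CPM (1.37 [1.19, 1.55]), and *ZIC2*, a zinc finger factor of epiblast and neural plate, at 205 and 82.7 CPM (1.31 [1.22, 1.40]). *POU3F1*, a factor of early neural fate, had a log2 ratio of 0.71 [0.54, 0.89], and the homeobox gene *IRX2* one of 0.63 [0.52, 0.74]. In all, 5 of the 19 neural ectoderm genes that could be compared were higher, with *TUBB3* and *STMN2*, which encode neuronal tubulin and a tubulin-binding protein, and none was lower. Their median log2 ratio was 0.46. Over all genes compared, 3.69% were higher and 1.37% lower. *STMN2* was rare, at 10.6 against 1.30 CPM. It entered only through its level in CYP26A1-high cells, so the filter fixed its direction. Of 41 genes of this list, 9 had no UMI in the CYP26A1-high cells of D6.

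The 12 highest ratios of D6 also held genes of other kinds. *FEZ1*, an adaptor for transport along axons that is not related to *FEZF1*, was at 70.7 against 15.2 CPM (2.21 [2.04, 2.39]). *PKDCC*, a secreted tyrosine kinase, was at 116 and 28.9 CPM (2.01 [1.87, 2.14]). The ephrin receptor gene *EPHA4* had a log2 ratio of 1.86 [1.62, 2.09], the protocadherin gene *PCDH18* one of 1.85 [1.61, 2.10], and *C1orf21* one of 1.55 [1.39, 1.72]. *CST1* and *FZD5* completed these 12 with *DPYSL3*, *MIAT*, *SFRP1* and *OTX2*. *CST1* is treated with the hypoblast transcripts below.

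Genes of the WNT pathway differed in both directions. *SFRP1*, a secreted antagonist that binds WNT ligands, was the most abundant of them in CYP26A1-high cells of D6, at 681 CPM [662, 700.4]. In comparison cells *SFRP1* was at 233 CPM [228, 238], a log2 ratio of 1.55 [1.497, 1.60]. Its relative *SFRP2* went the other way, at 279.5 against 492 CPM (−0.81 [−0.88, −0.75]). The receptor genes *FZD5* (1.66 [1.52, 1.79]), *FZD7* (1.40 [1.30, 1.51]) and *FZD8* (0.82 [0.47, 1.17]) were all higher, as were the antagonist *FRZB*, the R-spondin receptor *LGR4*, and both *FRAT1* and *FRAT2*. With *SP5*, a WNT target, this made 9 of 21 genes higher, and 3 were lower, against 3.69% and 1.37% of all genes compared. *FRAT1* was under 5 CPM in comparison cells, so the filter fixed its direction. The same held for *MSX2*, among the lower genes, which was under 5 CPM in CYP26A1-high cells. *SP5* had 44.8% of its UMIs in 16 cells with hypoblast transcripts, described below, and without them it was not called and 8 of 21 were higher. At D4 3 of 19 were higher, *FZD5*, *FRZB* and *SP5*, and without such cells *FZD5* was the 1 higher of 17. *AXIN2*, the usual readout of WNT signalling, was at 17.7 and 14.9 CPM at D6, a log2 ratio of 0.25 [−0.04, 0.53].

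Targets and feedback inhibitors of the FGF and ERK pathway included genes that were lower at D6. *DUSP6*, a phosphatase induced by ERK that inactivates it in turn, was at 31.5 CPM [27.5, 35.8] in CYP26A1-high and 68.1 CPM [65.4, 70.8] in comparison cells, a log2 ratio of −1.11 [−1.31, −0.92]. The transcription factors *ETV4* and *ETV5*, which FGF signalling induces, had log2 ratios of −0.97 [−1.18, −0.76] and −1.27 [−1.65, −0.91], and the feedback inhibitors *SPRY4* and *IL17RD* had −0.75 [−1.01, −0.50] and −0.62 [−0.87, −0.37]. *DUSP4*, another phosphatase of the pathway, was higher, at 11.2 against 4.12 CPM, but had a log2 ratio of 0.27 without the cells with hypoblast transcripts described below. The inhibitors *SPRY1*, *SPRY2*, *SPRED1* and *SPRED2* and the targets *ETV1* and *EGR1* did not pass 1.5-fold, with log2 ratios from −0.22 to 0.18. Of the ligands, *FGF2* was higher, at 84.0 against 54.7 CPM, and *FGF13*, which stays within the cell, was lower. The ligand *FGF17* was also higher and is given with the genes of the primitive streak below. Among the receptors *FGFR2* was higher (0.64 [0.45, 0.83]), and *FGFR1* was at 335 and 286 CPM. Of the 22 genes compared, 4 were higher and 6 were lower, and without the cells with hypoblast transcripts 3 of 21 were higher and 6 lower.

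Several BMP targets were lower as well. *ID3* and *ID4*, inhibitors of basic helix-loop-helix factors that BMP signalling induces, had log2 ratios of −0.71 [−0.76, −0.66] and −0.85 [−1.04, −0.66]. *ID1*, the most abundant of them, was at 764 against 925 CPM (−0.28 [−0.32, −0.24]), short of 1.5-fold. *BAMBI*, a decoy receptor, was at 30.7 and 54.9 CPM, and the target *MSX2* at 3.45 and 7.997 CPM. The ligands *BMP2* and *BMP7* were higher, with log2 ratios of 2.63 [2.20, 3.07] and 1.12 [0.87, 1.36], and so was *FST*, which encodes follistatin, an antagonist of activin and BMP, at 95.6 against 41.2 CPM (1.21 [1.08, 1.35]). *BMP2* was under 5 CPM in comparison cells and *MSX2* under 5 CPM in CYP26A1-high cells, so the filter fixed their direction. Of 15 genes compared, 4 were higher and 4 lower, with a median of −0.26, and 3 were higher and 4 lower without those cells.

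The lowest ratios of D6 beside *DUSP6* and *ETV4* belonged to *PCAT14*, *AC027288.1*, *SPATS2L*, *IGDCC3*, *CCND2* and *RBM47*. *PCAT14*, a long noncoding RNA on chromosome 22, was at 7.73 CPM [5.84, 10.04] in CYP26A1-high and 47.5 CPM [45.3, 49.8] in comparison cells, a log2 ratio of −2.62 [−3.03, −2.24]. It was found in 7.77% of the former and 27.3% of the latter. *CCND2*, a D-type cyclin of the G1 phase, was at 105 against 202 CPM (−0.95 [−1.06, −0.84]), while *CCND1* was at 228 and 199 CPM. The other 4 had log2 ratios from −1.08 for the noncoding *AC027288.1* to −0.93 for *RBM47*, an RNA-binding protein.

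Of the retinoic acid pathway beside *CYP26A1*, 2 genes passed 1.5-fold at D6 and none at D4. Of 49 further genes of synthesis, return to retinol, storage, carriage, receptors and targets, 21 could be compared at D6. Of these, 2 were at least 1.5-fold higher, against 3.69% of all genes compared. *DHRS3*, which reduces retinaldehyde back to retinol and so lowers the supply of retinoic acid, was at 28.6 CPM [24.8, 32.8] in CYP26A1-high and 10.3 CPM [9.25, 11.4] in comparison cells of D6, a log2 ratio of 1.48 [1.22, 1.73]. *CRABP2*, which carries retinoic acid to its receptors, was at 106 and 69.8 CPM (0.60 [0.48, 0.72]). The related carriers *CRABP1* and *FABP5* did not reach 1.5-fold, with log2 ratios of 0.24 [0.19, 0.29] and −0.39 [−0.44, −0.35]. The same held for *LRAT*, which stores retinol as esters (−0.56 [−0.83, −0.29]), for *RDH10*, which makes retinaldehyde (0.14 [−0.43, 0.68]), and for the receptors *RARG* (0.04 [−0.33, 0.40]) and *RXRA* (−0.03 [−0.35, 0.28]). The target *RARRES2* had a log2 ratio of 0.56 [0.46, 0.65], and of 0.587, just past 1.5-fold, without the cells with hypoblast transcripts described below. At D4 none of 20 genes compared passed 1.5-fold, where 1.29% of all genes were higher, and the median log2 ratio of the list was 0.01. *DHRS3* was then at 12.5 and 11.3 CPM.

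Within the D6 cells, those with *FEZF1* stood further from the comparison cells for several of these genes. This split was chosen after its values were seen. The 219 cells with a UMI of *FEZF1* and the 270 without one had similar median depths, 14036 and 14237 UMIs. *CYP26A1* was at 469.7 CPM in the former and 366 in the latter. *DPYSL3* was at 229.7 and 107 CPM, *FEZ1* at 107 and 41.4, and *PCDH18* at 52.6 and 17.0. Of the low genes, *DUSP6* was at 12.4 CPM with *FEZF1* and 46.9 without it, against 68.1 in comparison cells, and *PCAT14* was at 1.24 and 13.0 CPM, against 47.5. *MT-CO3*, a mitochondrial transcript, was at 2646 and 3836 CPM, against 5742, and *MALAT1*, a nuclear RNA, at 7329.5 and 5022 CPM, against 3637, and their part in the other differences was not tested. *CST1* went the other way, at 88.5 CPM with *FEZF1* and 227 without it. The cells without *FEZF1* still differed from comparison cells, with log2 ratios of 1.17 [1.01, 1.32] for *DPYSL3*, 1.21 [1.03, 1.39] for *OTX2* and 1.15 [1.08, 1.22] for *SFRP1*.

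At D4 fewer genes differed under the rule used here, and other genes led. Of 10432 genes compared, 135 (1.29%) were at least 1.5-fold higher in CYP26A1-high cells and 59 (0.566%) at least 1.5-fold lower. This order of the days depended on the threshold. With *CYP26A1* at 5 UMIs or more, more genes were called lower at D4 than at D6, and nearly as many were called higher. A threshold scaled to the UMIs of a cell also gave more lower genes at D4 than at D6. Both settings leave fewer cells, with fewer at D4 than at D6. A call rests on the fold alone, without regard to counting error, and the part of counting error in these counts was not tested. Among genes at 20 CPM or more, the highest ratios were those of the NODAL antagonists *LEFTY1* and *LEFTY2*, which are themselves induced by NODAL. *LEFTY2* was at 58.2 CPM [52.0, 65.0] in CYP26A1-high and 13.5 CPM [11.9, 15.2] in comparison cells, a log2 ratio of 2.11 [1.87, 2.36]. *LEFTY1* (chr1:225886282-225889146, GRCh38.p14) was at 168 CPM [157, 179] and 43.4 CPM [40.5, 46.5], a log2 ratio of 1.95 [1.81, 2.09]. It was found in 28.5% of CYP26A1-high cells and 14.3% of comparison cells, so most CYP26A1-high cells had none. The 5 cells with most *LEFTY1* held 25.9% of its UMIs. *LEFTY1* lies beside *LEFTY2* and resembles it in sequence, so reads may be split between them.

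The rest of the NODAL list at D4 held 3 more genes that were higher, of 15 compared, and none that was lower. These 3, *NODAL*, *EOMES* and *CER1*, were under 5 CPM in comparison cells. They entered only through their level in CYP26A1-high cells, so the filter fixed their direction. *NODAL* was at 10.7 against 2.96 CPM (1.85 [1.30, 2.41]), and *EOMES*, a target in streak and endoderm, at 10.9 and 4.49 CPM (1.28 [0.77, 1.77]). *CER1*, a secreted antagonist of NODAL, BMP and WNT, had the largest ratio of the list, 3.84 [3.34, 4.37], but 5 cells held 73.2% of its UMIs. *TDGF1*, the co-receptor of NODAL, was at 195 and 184 CPM. At D6 *LEFTY1* was much lower in both groups, at 19.5 and 4.23 CPM, with 5 cells holding 53.9% of its UMIs in CYP26A1-high cells. *FST* and *MIXL1* were then also higher, the latter with 72.1% of its UMIs in 5 cells, and *SKIL*, a repressor of SMAD signalling, was lower (−0.66 [−0.75, −0.58]). With *LEFTY1*, *CER1* and *EOMES* this made 5 higher and 1 lower of 14. The 5 cells with most *CER1* held 95.7% of its UMIs at D6, and 57.4% of the *EOMES* UMIs were in 16 cells with hypoblast transcripts, described below. Without those cells 2 of 11 genes were higher at D6, *LEFTY1* and *FST*, and 2 were lower. At D4 the calls of *LEFTY1* and *LEFTY2* stood without such cells. *NODAL*, *EOMES* and *CER1* were also still called, in the direction that the filter fixed.

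The other genes among the 12 highest at D4 were of several kinds. *FZD5* was the one that was also among the 12 highest at D6 beside *CST1*, at 64.1 against 34.5 CPM at D4 (0.89 [0.70, 1.08]). *RHOBTB3*, *CCKBR*, the receptor of gastrin and cholecystokinin, and *FAM184A* had log2 ratios of 1.08 [0.82, 1.33], 0.93 [0.64, 1.21] and 0.90 [0.65, 1.15], the noncoding *AL009031.1* had 0.77 [0.47, 1.06], and *ARRB1*, which encodes a beta-arrestin, had 0.66 [0.36, 0.95]. *PLK1*, a kinase of mitosis, was at 103 and 62.0 CPM (0.74 [0.59, 0.88]), and *DEPDC1*, also known from dividing cells, had 0.66 [0.45, 0.87]. Among 30 genes of the G2 and M phases, *PLK1*, *CDK1* and *UBE2C* were higher and none was lower, with a median log2 ratio of 0.28. The 28 compared S phase genes had a median of −0.21, with *E2F8* lower. The ratios of *PLK1* and *DEPDC1* went to 0.44 and 0.36 when comparison cells were weighted to the depth of the CYP26A1-high cells. At D6 the medians of these lists were 0.19 and −0.23, and *BUB1* of the mitotic list was higher.

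The 8 lowest ratios of D4 were smaller. They included 5 histone genes, *HIST1H1D*, *HIST1H2AC*, *HIST1H1E*, *HIST1H1B* and *HIST2H2AC*, with log2 ratios from −0.78 to −0.53. *HIST1H1D*, a linker histone transcribed mainly in S phase, was at 136 in CYP26A1-high and 233 CPM in comparison cells. *PCAT14* was among them too, at 23.2 against 36.6 CPM (−0.66 [−0.94, −0.38]), and so were *DNAJA3*, a co-chaperone (−0.61 [−0.93, −0.30]), and *KHDC4*, a splicing factor (−0.54 [−0.87, −0.21]).

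More than 5 UMIs summed over 7 hypoblast genes were found in a minority of the CYP26A1-high cells, and some ratios were smaller without those cells. Lower counts of hypoblast transcripts were more widespread. A UMI of *APOA1* was found in 25.2% of CYP26A1-high cells at D4 and 61.6% at D6, and one of *APOE* in 100% on both days. These transcripts were not particular to CYP26A1-high cells. *APOE* was abundant in comparison cells as well, and at D4 it did not pass 1.5-fold. In epiblast-like cells with no UMI of *CYP26A1* or *TFAP2A* and at most 7 of *TAGLN*, *APOA1* was found in 16.6% at D4. *APOA1*, an apolipoprotein that marks hypoblast-like cells, was at 30.8 and 16.9 CPM at D4 and at 192 and 67.7 CPM at D6, against 1752 and 12666 CPM in the hypoblast gate. *CST1*, a secreted cystatin, was at 101 and 36.7 CPM at D4 (1.46 [1.30, 1.63]) and at 165 and 31.7 CPM at D6 (2.38 [2.27, 2.503]), against 2369.9 and 7063 CPM in the hypoblast gate. Over all 20 hypoblast markers the summed level was 1683 CPM in CYP26A1-high and 1343 in comparison cells at D4, and 2290.3 and 1420.1 CPM at D6, with *APOE* the most abundant of them and none without a UMI. Of 11 compared each day, 5 were higher and none was lower. With the cells described next left out, 2 of 9 were higher at D4, *BMP2* and *CST1*, and 1 of 11 at D6, *BMP2*, a count that follows in part from how those cells were chosen. *BMP2* on both days and *FOXA2* at D4 were under 5 CPM in comparison cells, so the filter fixed their direction. More than 5 UMIs summed over 7 defining hypoblast genes were found in 18 of 326 CYP26A1-high cells at D4, 5.52% [3.30, 8.59], against 0.525% [0.211, 1.08] of comparison cells. At D6 it was 16 of 489, 3.27% [1.88, 5.26], against 0.602% [0.337, 0.991].

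At D6 these 16 cells held 82.5% of the *CST1* UMIs of the CYP26A1-high cells, and *CST1* is not among the 7 genes that chose them. With such cells left out of both groups, the log2 ratio of *CST1* at D6 was −0.03, and that of *APOE*, also not among the 7, went from 0.60 to 0.45, short of 1.5-fold. For *APOA1*, *GATA6*, *FOXA2* and the other genes of the 7, lower ratios without these cells follow from how the cells were chosen. Other genes had about the same ratio at D6 without those cells, with log2 ratios of 4.65 for *FEZF1*, 1.80 for *DPYSL3*, 1.63 for *MIAT*, 1.54 for *OTX2*, 1.57 for *SFRP1* and −1.15 for *DUSP6*. Ratios of sparser genes were smaller, with 1.93 for *IGFBP5*, 3.46 for *CER1* and 0.34 for *EOMES*, and that of *SP5* turned to −0.069. At D4, without the 18 cells, the log2 ratios of *CCKBR* and *RHOBTB3* were 0.43 and 0.52. *LEFTY1* and *LEFTY2* stood at 1.95 and 1.97, *FZD5* at 0.62 and *CST1* at 1.29. Whether single droplets held a cell of each kind was not tested.

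Genes of the primitive streak were of the same concentrated kind. *FGF17*, a ligand of streak and anterior endoderm, was at 35.0 against 3.54 CPM at D4 (3.31 [2.90, 3.73]) and at 23.9 against 2.77 CPM at D6 (3.11 [2.75, 3.48]). It was found in 13.8% of CYP26A1-high cells at D4 and 6.75% at D6. The cells with hypoblast transcripts held 45.3% and 69.9% of its UMIs, and without them its log2 ratio was 2.83 and 1.44. Of 14 genes in the list, 4 could be compared on each day. Most of these were under 5 CPM in comparison cells and entered through their level in CYP26A1-high cells alone, so that no count of higher genes is given. No UMI was found for 4 of 14 in the CYP26A1-high cells of D4 and for 1 of 14 at D6.

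**Figure D2:**
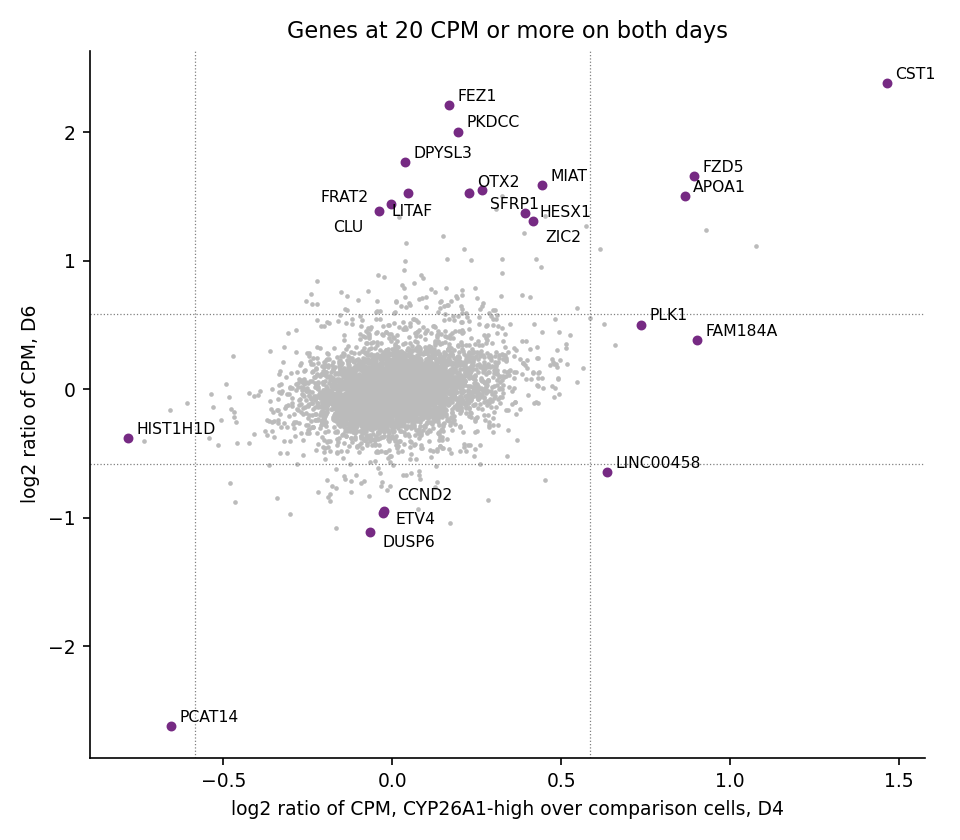
log2 ratio of CPM, CYP26A1-high over comparison cells, at D4 (x axis) and D6 (y axis) for the 5776 genes with a mean of at least 20 CPM on both days, with 1.5-fold as dotted lines and named genes in purple. *DPYSL3*, *FRAT2*, *CLU*, *LITAF*, *PKDCC* and *FEZ1* lie near 0 on the D4 axis and above 1 on the D6 axis, and *PCAT14* is low on both.

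The profiles of the days overlapped in part. Across the 10266 genes compared on both days, the log2 ratios of D4 and D6 had a Pearson correlation of 0.28 and a Spearman correlation of 0.21, given as a description since genes are not independent. Of the genes called higher, 33 were shared, 31.1% of 106 such genes of D4 and 10.6% of 312 of D6. Of those called lower, 7 were shared, 12.7% of 55 and 4.96% of 141. Over all genes compared on a day, 3.69% were called higher at D6 and 1.29% at D4, and 1.37% and 0.566% were called lower. The ratio was higher at D6 than at D4 by most for *FEZ1*, *PKDCC*, *DPYSL3* and *LITAF*, among genes at 20 CPM or more on both days. *LITAF*, a regulator of endosomes, was at 130.2 and 126 CPM at D4 and at 212 and 73.6 CPM at D6. The ratio was lower at D6 by most for *PCAT14*, *LINC00458*, *SPATS2L* and *AC003975.1*. *LINC00458*, a noncoding RNA of pluripotent cells, was at 1003 against 645 CPM at D4 (0.64 [0.59, 0.68], and 0.55, short of 1.5-fold, with comparison cells weighted to the depth of the CYP26A1-high cells) and at 384 against 599.9 CPM at D6 (−0.64 [−0.70, −0.59]).

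For several of these genes the D6 ratio came with lower levels in comparison cells. The log2 ratio of D6 over D4 was 0.62 [0.43, 0.81] in CYP26A1-high and −0.68 [−0.80, −0.56] in comparison cells for *OTX2*. It was 0.38 [0.32, 0.45] and −0.90 [−0.94, −0.86] for *SFRP1*, and 0.31 [0.15, 0.47] and −1.500 [−1.61, −1.39] for *PKDCC*. *HESX1* had 0.16 [−0.07, 0.40] in CYP26A1-high cells, an interval that includes 0, and −0.82 [−0.97, −0.67] in comparison cells. *FEZF1* differed between days in CYP26A1-high cells alone of these groups, with 3.83 [3.22, 4.50] and −0.30 [−0.79, 0.20], and the markers *FRAT2* (1.65 [1.44, 1.87] and 0.21 [0.09, 0.33]) and *MIAT* (1.38 [1.14, 1.63] and 0.24 [0.08, 0.40]) were also higher at D6 mainly there. *CRABP2* was higher at D6 in both, 1.64 [1.41, 1.88] and 0.99 [0.87, 1.12]. With 1 library per day, a difference between days cannot be told apart from one between libraries.

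At D6 the level of several genes followed the number of *CYP26A1* UMIs in a cell. *FEZF1* was at 2.54 CPM in epiblast-like cells with no UMI of *CYP26A1*, 5.79 with 1, 6.98 with 2, 37.6 with 3 or 4, 82.8 with 5 to 9 and 86.8 with 10 or more. *DPYSL3* went from 48.0 CPM to 80.2 with 2 UMIs and 206 with 10 or more, with a difference already outside the threshold. *DUSP6* was at 67.9 CPM with none, 67.7 with 2 and 12.4 with 10 or more, so that it was lower inside the threshold alone. At D4 *DPYSL3* was at 62.0 CPM with no UMI of *CYP26A1* and 58.7 with 5 to 9, while *LEFTY1* went from 54.9 CPM with 2 UMIs to 159.8 with 3 or 4. *CST1* at D6 was at 31.6 CPM with none and 31.9 with 2, and reached 447 with 10 or more. The median depths of the groups of cells were 13829 to 18148.5 UMIs at D4, highest in the 14 cells with 10 or more, and 13952 to 15418 at D6.

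**Figure D3:**
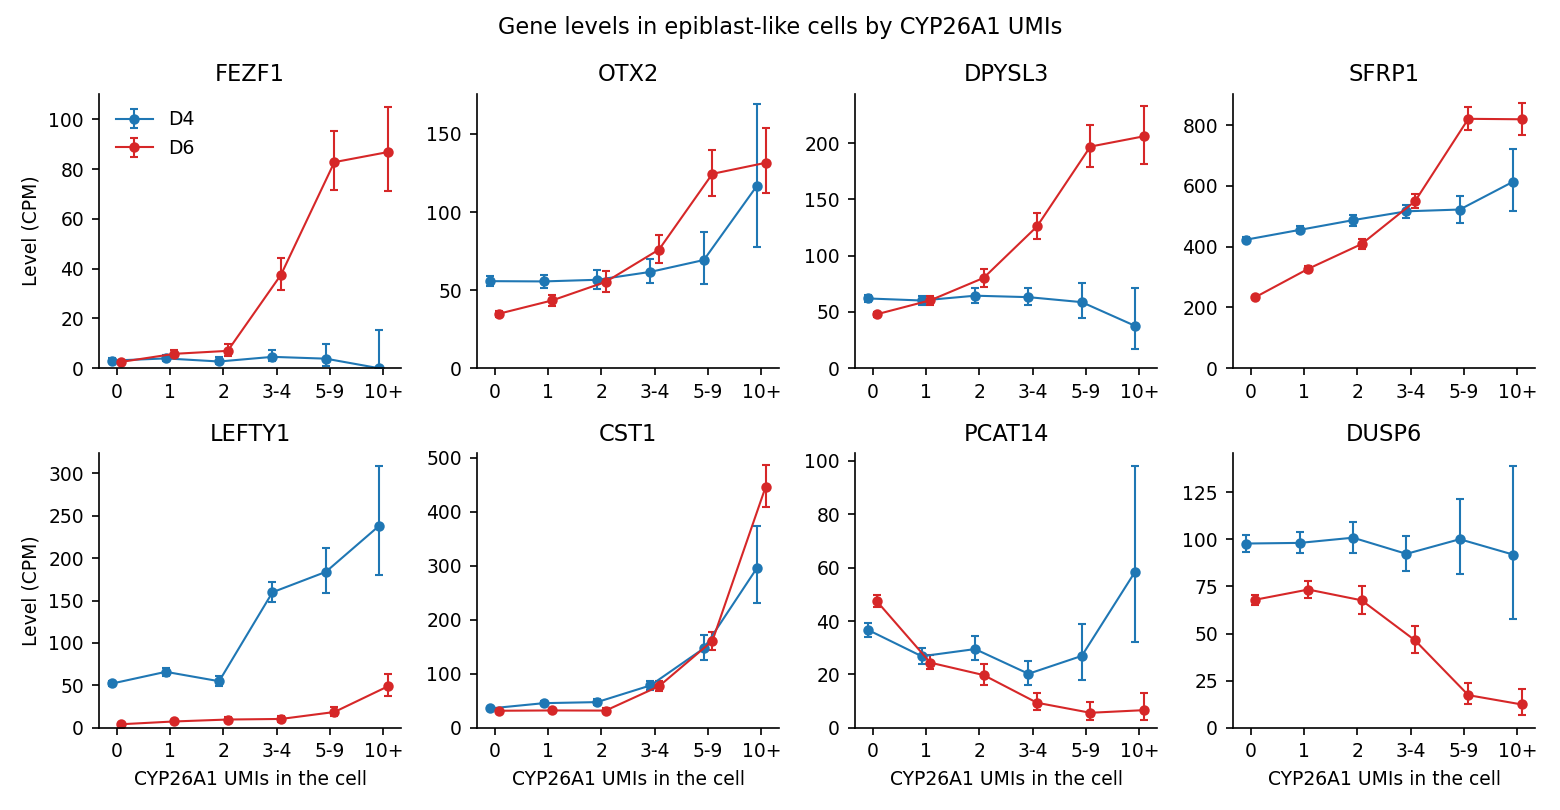
Level in CPM (y axis, with 95% Poisson intervals) of 8 genes in epiblast-like cells by the number of *CYP26A1* UMIs in the cell (x axis), with *TAGLN* at most 7 and no *TFAP2A*, at D4 (blue) and D6 (red). *FEZF1* at D6 stands at 6.98 CPM in cells with 2 UMIs and 82.8 CPM in cells with 5 to 9, while at D4 it stays under 5 CPM in every group of cells.

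Of all epiblast-like cells with 3 or more *CYP26A1* UMIs, 24.3% at D4 and 11.9% at D6 were outside the rule because they had 8 or more UMIs of *TAGLN*, an actin-binding protein. With no *TFAP2A* these double-high cells numbered 109 and 67. At D6 they had *FEZF1* at 55.4 CPM, *MIAT* at 71.2 and *DPYSL3* at 139.7. The log2 ratio of CYP26A1-high over double-high cells was 0.12 [−0.26, 0.53] for *FEZF1* and 0.21 [−0.03, 0.46] for *DPYSL3*, both with intervals that include 0, but 0.63 [0.28, 1.00] for *OTX2* and −2.66 [−3.01, −2.31] for *LEFTY1*. *CER1* was at 145 CPM in double-high cells and 12.8 in CYP26A1-high cells. The 40 TAGLN-high cells of D6 with at most 2 UMIs of *CYP26A1* also had the markers, *DPYSL3* at 174 and *CLU* at 146 CPM, so these were not particular to the CYP26A1-high cells. *FEZF1*, at 30.7 CPM, was lower in them than in CYP26A1-high cells (log2 ratio 0.97 [0.34, 1.68]), as was *PKDCC*, at 24.8 CPM (2.22 [1.53, 3.01]).

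At D4 the *LEFTY* genes were higher in the 340 TAGLN-high cells than in the CYP26A1-high cells. *LEFTY1* was at 332 CPM there, a log2 ratio of CYP26A1-high over TAGLN-high cells of −0.98 [−1.10, −0.87], and *LEFTY2* had −0.89 [−1.09, −0.70]. Of the 326 CYP26A1-high cells of D4, 36 had 5 to 7 UMIs of *TAGLN*, more than any comparison cell. With *TAGLN* at most 4 in both groups, the log2 ratios of *LEFTY1* and *LEFTY2* at D4 were 1.68 and 1.85. The epiblast-like cells with 2 or more UMIs of *TFAP2A*, a factor of amnion and surface ectoderm, numbered 70 at D4 and 336 at D6 and stood apart. At D6 they had *FEZF1* at 2.06 CPM, *HESX1* at 4.32, *OTX2* at 15.2 and *PCAT14* at 370.2 CPM, against 7.73 in CYP26A1-high cells.

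**Figure D4:**
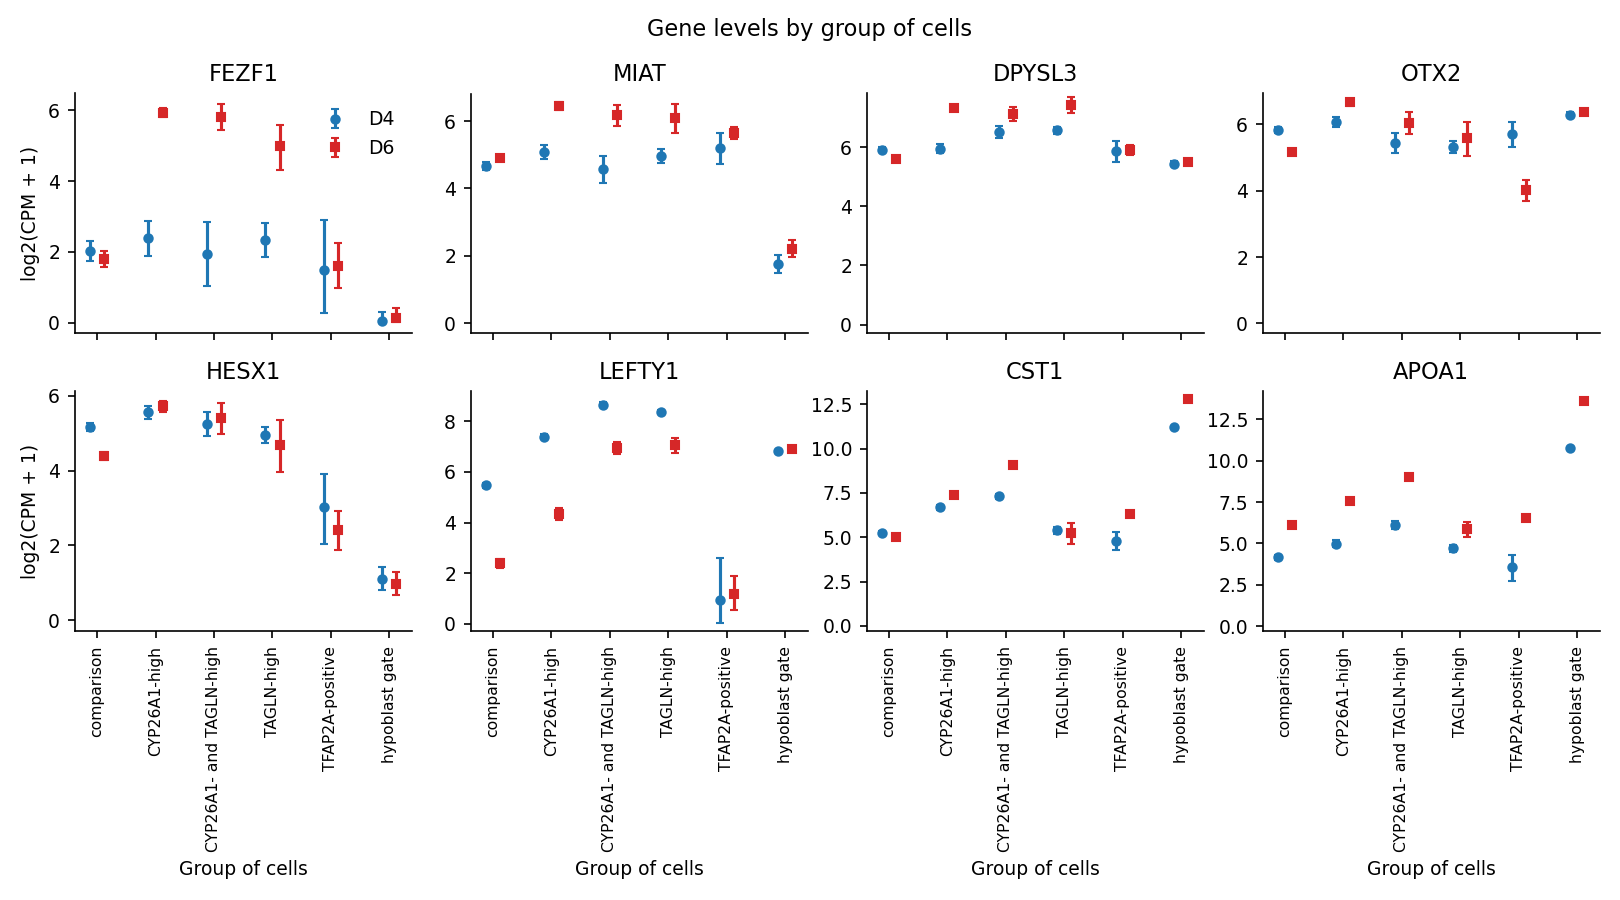
Level of 8 genes as log2(CPM + 1) (y axis, with 95% Poisson intervals) in 6 groups of cells (x axis) at D4 (blue circles) and D6 (red squares). *FEZF1* at D6 is highest in CYP26A1-high and double-high cells, at 60.2 and 55.4 CPM, and is at 0.0907 CPM in the hypoblast gate, where *CST1* and *APOA1* are highest.

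The CYP26A1-high cells varied most among themselves in mitochondrial, hypoblast and noncoding transcripts. With UMIs scaled to equal depth, *MT-CO3* at D4 had a variance 35.1 times its mean, with 17 to 392 UMIs in a cell and a median of 92. *MT-CO1*, *MT-CO2*, *MT-ATP6* and *MT-CYB*, of the respiratory chain, were among the 10 most variable genes on both days, as were *MALAT1*, *LINC00458* and *CST1*. *CER1* and *LEFTY1* completed the D4 genes, with highest values of 41 and 58 UMIs in a cell and a median of 0. *APOA1* and *GAL*, which encodes the peptide galanin, completed those of D6. *CST1* had the highest ratio of variance to mean at D6, 52.3, with a median of 0 and a highest value of 164 UMIs. Across the 489 cells of D6, *MT-CO1* had a Pearson correlation of −0.26 with *CYP26A1*, and across the 326 cells of D4 *CER1* had 0.48. The latter rests on few cells, since 29 had a UMI of *CER1* and 5 of them held 73.2% of its UMIs. These are descriptions of sparse counts within 1 library each. Between the groups, *MT-CO3* at D6 was at 3306 CPM in CYP26A1-high and 5742 in comparison cells (−0.80 [−0.82, −0.78]), and *MALAT1*, a nuclear RNA, at 6051 and 3637 CPM (0.73 [0.72, 0.75]). The part of these shifts in the other ratios was not tested. Scaling without mitochondrial and ribosomal UMIs moved none of the 144 log2 ratios past 1.5-fold of the genes named here by more than 0.0114. It changes only the total of each group and so moves all genes of a day alike, and it cannot show that part.

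Genes of several other lists differed at D6. Of 20 primed and formative genes at D6, 7 were higher and 5 lower, among them *SOX11* (0.86 [0.75, 0.98]) and the cadherin gene *CDH2* (1.09 [0.87, 1.31]) on the high side and *THY1* (−0.76 [−0.88, −0.64]) on the low side. At D4 *CDH2* was the 1 gene of the list past the threshold, and without the cells with hypoblast transcripts its log2 ratio was 0.48 and none passed. Insulin-like growth factor binding proteins were higher at D6, with *IGFBP2* at 2024 against 1238 CPM (0.71 [0.68, 0.74]), *IGFBP3*, *IGFBP5* and *IGFBP6* less abundant, so that 4 of 8 genes of the IGF axis were higher, and *IGFBP4* was the 1 lower (−0.73 [−0.90, −0.56]). *IGFBP5* had 57.9% of its UMIs in the 16 cells with hypoblast transcripts. Without those cells *IGFBP5* fell under the filter of 5 CPM, with a log2 ratio of 1.93, and *IGFBP6* had 0.58, just short of 1.5-fold. Then 3 of 7 were higher, *IGFBP2*, *IGFBP3* and the insulin receptor gene *INSR*. None of 6 passed at D4. Of contractile and YAP target genes, 4 of 24 were higher at D6, the myosin light chain gene *MYL9*, the tropomyosin gene *TPM1*, the vinculin gene *VCL* and *AJUBA*, and none of 23 at D4. Of 8 late epiblast markers, 5 were higher at D6, and none of 6 at D4. Genes of cholesterol synthesis had a median log2 ratio of −0.32 at D6, where *MVK* and *INSIG1* of 25 were lower, the latter with −0.55 and no call without the cells with hypoblast transcripts, and none of 25 passed at D4.

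**Figure D5:**
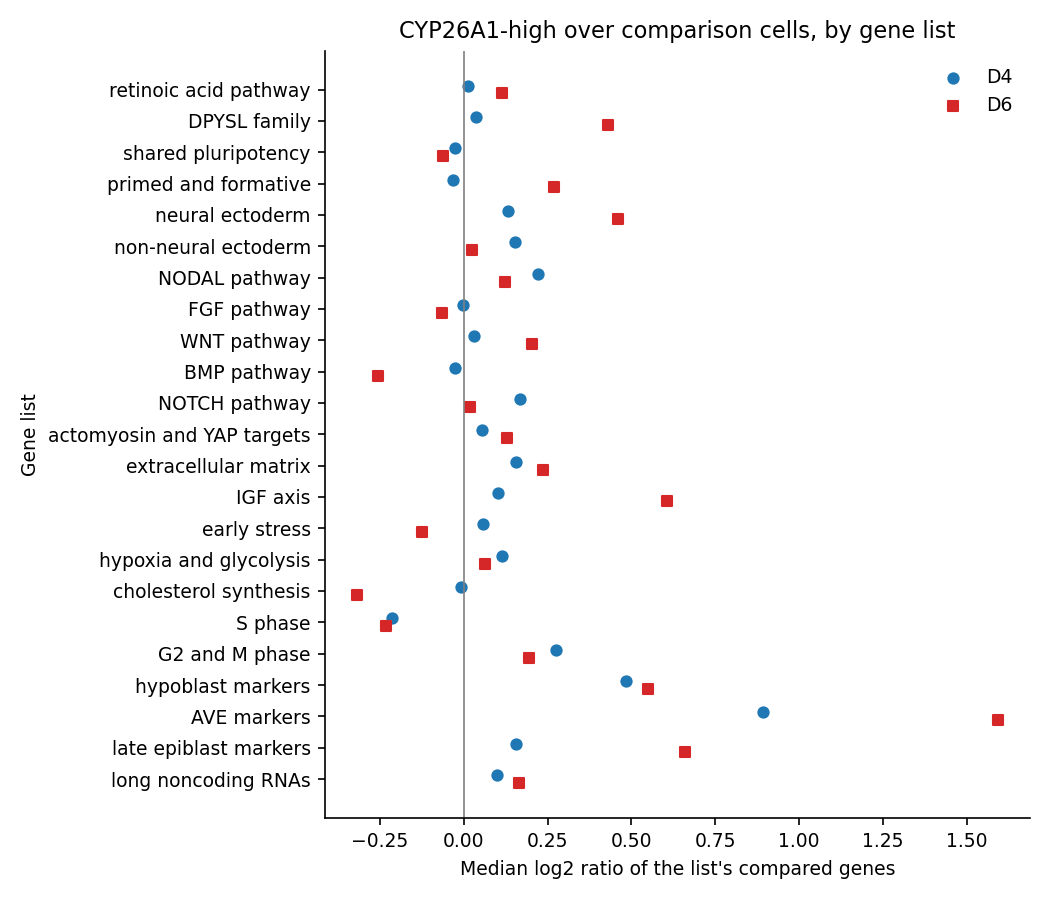
Median log2 ratio of CPM, CYP26A1-high over comparison cells (x axis), over the compared genes of 23 gene lists (y axis) with at least 5 compared genes on each day, at D4 (blue circles) and D6 (red squares). The anterior visceral endoderm (AVE) markers have the highest medians, 0.89 and 1.59, and all genes compared have a median of 0.01 on each day.

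Markers of the anterior visceral endoderm, the part of the hypoblast known for secreting NODAL and WNT antagonists, had the highest medians of the plotted lists. Of these, *CER1* on both days and *LEFTY1* at D6 were under 5 CPM in comparison cells and entered only through their level in CYP26A1-high cells. Of the compared genes that were at 5 CPM or more in comparison cells, *LEFTY1*, *LEFTY2*, *SHISA2*, *HHEX* and *FZD5* were higher at D4 and *OTX2* did not pass, *HHEX* having 0.41 and no call without the cells with hypoblast transcripts, and at D6 those higher were *SHISA2* (1.12 [0.83, 1.40] at D6), *HHEX* (0.82 [0.48, 1.15]), *OTX2* and *FZD5*. Markers of other cell types were sparse. Of amnion markers, 3 of 6 compared at D6 were higher and 2 lower, *KRT7*, a keratin, being at 9.67 against 4.40 CPM, and none of 3 at D4. In the extracellular matrix list 3 of 14 were higher at D6, among them *COL1A1*, and none of 13 at D4. The lists of NOTCH signalling, early stress and hypoxia and glycolysis had at most 2 genes past 1.5-fold in one direction on each day, and early stress had 1 lower at D6 in place of 2 without the cells with hypoblast transcripts. Of non-neural ectoderm genes 1 of 6 was higher at D6, *KRT7*, with 1 lower once the same cells were left out, and none of 6 at D4. Of trophoblast markers 2 of 3 were higher at D6, *KRT7* and *TFAP2C*, while 11 of 17 had no UMI in the CYP26A1-high cells, among them *CGA* and *GCM1*. Of germ cell markers 3 of 4 were higher at D6, *TFAP2C*, *DPPA3* and *PDPN*, and of mesoderm markers 1 of 2, *SNAI1*. *KRT7* and *DPPA3* were under 5 CPM in comparison cells of D6, so the filter fixed their direction. Over all genes compared at D6, 3.69% were higher and 1.37% lower. None of 3 trophoblast, 3 germ cell and 1 mesoderm markers passed at D4. *TFAP2C*, a factor of germ cells, amnion and naive cells, was at 11.5 against 6.42 CPM at D6. Of 16 long noncoding RNAs compared, 4 were higher at D6, *MIAT*, *XACT*, *MALAT1* and *NEAT1*, and 2 were lower, *LNCPRESS2* and *LINC00458*, and *LINC00458* was the 1 past 1.5-fold at D4, where weighting by depth ended the call.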

How the data were processed

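Per the file headers and the labels, the authors aligned the reads of 2 libraries with Cell Ranger 6.0.1 to hg38 and deposited raw UMI counts per gene for 36601 genes in the called cells, with no normalization. The submitters' processing notes also name Seurat 4.0.1 and R 4.0.3. Total counts were 151712246 UMIs in 10943 cells at D4 and 150320228 in 11483 cells at D6. The 7 bisulfite libraries were not used here.

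Members, gene lists and comparisons were chosen with earlier results of these data known. UMIs were summed over cells of a group and divided by the group's total, and a gene was compared at a mean of at least 5 CPM, without the 6 genes of the rule. Named genes were the 12 highest and 8 lowest log2 ratios per day at 20 CPM or more, the markers, the 4 genes each way whose ratio differed most between days, the 10 most variable genes among members, and examples from 30 lists. Other genes named are members of those lists. No doublet caller was run. Doublets were addressed by the limit on UMIs. As an alternative setting, cells with over 5 UMIs summed over *APOA1*, *APOA2*, *GATA4*, *GATA6*, *SOX17*, *FOXA2* and *HNF4A* were left out. The main levels, ratios and counts include those cells. Thinned shares drew 3430 UMIs from every cell, and no kept cell was shallower. PCR duplicates were removed by UMI, and intervals cover counting error only. Alternatives changed the cell filter, the thresholds on *CYP26A1* and *TAGLN*, the weighting of cells, the scaling, the minimum CPM and the fold. The calculation was tested on simulated data. Python 3.11.15, numpy 2.4.6, pandas 2.3.3, scipy 1.17.1 and matplotlib 3.10.9 were used. Promoter sequences and gene positions are from RefSeq, GRCh38.p14.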

Additional observations from a re-analysis of the deposited data

Results flagged for a closer look

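*LINC00458* was the 1 gene named here that passed 1.5-fold in opposite directions on the 2 days. Its log2 ratio was 0.64 [0.59, 0.68] at D4 and −0.64 [−0.70, −0.59] at D6. The difference was not tested, since each day has 1 library. With comparison cells weighted to the depth of the CYP26A1-high cells, the D4 log2 ratio was 0.55, short of 1.5-fold, so the passing in opposite directions is lost under that setting.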

How the results depend on the processing

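No paired analysis was possible because each day has 1 RNA library and no result comes from a test. Without replicates nothing here measures the spread between cultures, and 251 of the 326 D4 cells have only 3 or 4 UMIs of *CYP26A1*, at a median depth above that of the D6 cells. Of the 144 log2 ratios past 1.5-fold of the genes named here, all kept their direction under 8 settings that changed the cells, the weighting or the scaling. Centring the median at 0 and leaving out ribosomal and mitochondrial UMIs moved them by at most 0.0104 and 0.0114, so neither could turn any. Sizes moved by up to 1.92 with *CYP26A1* at 5 UMIs or more and 1.37 at 250 per 1000000, where 138 and 135 were still past 1.5-fold. It was 134 for the mean over cells, 135 with no cell filter and 136 with weighting by depth. With the cells carrying hypoblast transcripts left out, 138 kept their direction and 124 were still past 1.5-fold. The 6 that turned, all at D6, were *APOA1* (−0.020), *CST1* (−0.030), *NODAL* (−0.53), *GATA6* (−0.057), *FOXA2* (−0.63) and *SP5* (−0.069). *APOA1*, *GATA6* and *FOXA2* are among the genes that chose the cells left out, so their turn follows from that choice. With *CYP26A1* at 5 UMIs or more, the share of CYP26A1-high cells at D4 was 0.820% and the share of CYP26A1-high cells at D6 was 2.34%. The genes called higher at D4 then numbered 674 and the genes called lower at D4 582, with 683 genes called higher at D6 and 336 genes called lower at D6. With *CYP26A1* set at 250 per 1000000 UMIs of a cell, the shares were 1.48% and 3.39%, with 449 genes higher and 348 lower at D4 and 283 lower at D6. Under both settings more genes were called lower at D4 than at D6, the reverse of the order under the main rule. Both settings leave fewer cells, with fewer at D4 than at D6, and a call rests on the fold alone, without regard to counting error. The cause of the larger counts was not tested. With *TAGLN* at most 4 the D4 share was 3.17%. With the cells carrying hypoblast transcripts left out, also of the kept cells, the shares were 7.06% and 8.45%. Without ribosomal and mitochondrial UMIs, 97 genes were lower at D4. Every CPM is larger on the smaller total, so more sparse genes pass the filter of 5 CPM under that setting. Among genes at 20 CPM or more, 18 were higher and 5 lower at D4, and 133 and 49 at D6. Among genes at 1 CPM or more it was 670 and 491, and 1068 and 484. At 2-fold it was 28 and 1, and 134 and 24.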
